A study of Mus musculus with 138 samples.

Results

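Suture mesenchyme (SM) of the coronal suture was compared between embryonic days E18.5 and E16.5 in wild-type mouse embryos of the inbred strain C57BL/6J, which carried no engineered allele and received no treatment. The comparison rests on 10 of the 138 samples of the series, 5 libraries at each age, which were chosen by their labels as the first laser-captured libraries of coronal SM. Each was made from 1 embryo by laser capture of SM, amplification of its RNA and sequencing, and the values are counts of read pairs per gene. Second libraries of coronal SM from the same embryos, 3 at each age, served as a check with other libraries but not with other embryos. The other 3 sutures gave 30 SM libraries, and the osteogenic fronts (OFs) of the coronal suture, the growing edges of the frontal (FR) and parietal (PA) bones, gave 20. The embryos came from 3 litters at E16.5 and from 2 other litters at E18.5, so that each litter has embryos of 1 age. Each capture is a small bulk sample, in which fewer cells of a type and less RNA per cell cannot be told apart.

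Sutures are the fibrous joints between the flat bones of the skull. Their mesenchyme stays unossified and holds progenitors that can become osteoblasts, while the bones grow by addition at their fronts. In the coronal suture the parietal bone comes to lie over the frontal bone, with a thin sheet of mesenchyme between them that in time becomes a fibrous, collagen-rich tissue. Hedgehog, WNT, BMP, TGF-beta and FGF signals act on the balance between progenitors and bone-forming cells there.

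Among the first libraries, those of E16.5 were less alike than those of E18.5, while among the second libraries the E16.5 group had the smaller spread. Total counts per first library were 20873549 to 28469158 at E16.5 and 20133332 to 23075597 at E18.5, and 5530060 to 15697623 in the second libraries. Genes of the mitochondrial chromosome took 25.7 to 51.0% of the counts at E16.5 and 20.7 to 25.9% at E18.5. E16.5 libraries 1 and 5 stood apart, with mitochondrial shares of 41.7% and 51.0%, 13807 and 13301 genes at 1 CPM (the count scaled to library size) or more, and positions of -108.9 and -99.9 on the first principal component, where the other 8 libraries lay between -37.1 and 58.0. Among the first libraries, all coronal captures at E16.5 had high mitochondrial shares, with medians of 33.8% and 37.2% in the FR and PA fronts, whereas the SM of the frontal, lambdoid and sagittal sutures had medians of 18.9%, 13.5% and 15%. In the second libraries of coronal SM the share was 13.5 to 17.2% at both ages. The median SD of log2 CPM across genes with at least 10 CPM was 0.51 at E16.5 and 0.31 at E18.5 in the first libraries, and 0.22 and 0.30 in the second. These shares cover all genes of the mitochondrial chromosome. The 13 listed mitochondrially encoded genes described below summed to only 26923 to 98001 CPM at E16.5 and 14821 to 21574 CPM at E18.5 in the first libraries. With all genes of that chromosome left out before scaling, 5540 genes were called in place of the 5367 given below. Of 165 named genes called, 164 kept their call. The part of what else goes with a high mitochondrial share was not tested. Results are therefore given, for most lists and named genes, also from the second libraries and, for the counts of gene lists that change, without E16.5 libraries 1 and 5.

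**Figure D1:**
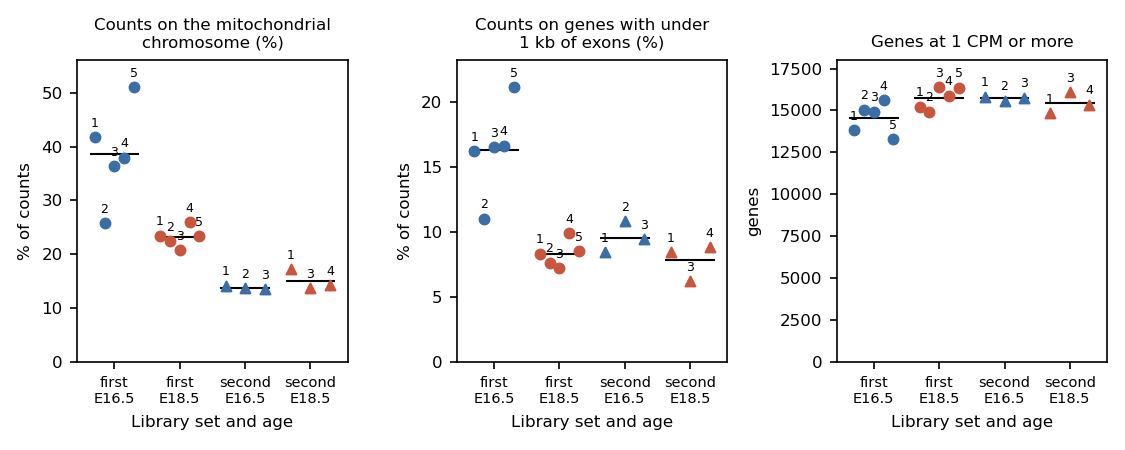
Share of counts on mitochondrial genes (left, % of counts), share on genes with under 1 kb of exons (middle, % of counts) and number of genes at 1 CPM or more (right) in each coronal SM library, by library set and age. Numbers are replicate numbers, bars are means, and E16.5 first library 5 has the highest mitochondrial share, 51.0%.

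The captures carried markers of cranial mesenchyme at both ages. Prrx1, a transcription factor of craniofacial mesenchyme, lay at 814 to 1336 CPM at E16.5 and 626 to 813 CPM at E18.5. The whole list of 10 osteoblast markers summed to 272 to 688 CPM at E16.5 and 283 to 631 CPM at E18.5, scaled by total counts. With mitochondrial counts left out of the totals, that sum was 438 to 1181 and 369 to 853 CPM. On the scale used for single genes, Ibsp was at 149 to 661 CPM at E16.5. Within the list, Bglap, which encodes osteocalcin, did not exceed 0.656 CPM, and Spp1, which encodes osteopontin, stayed between 1.33 and 10.5 CPM. Markers of dura mater and meninges summed to 467 to 657 CPM at E16.5 and 734 to 1174 CPM at E18.5, and those of the hypodermis to 190 to 593 and 592 to 808 CPM. With mitochondrial counts left out of the totals, the dura sums were 629 to 1121 and 927 to 1513 CPM, which overlap. Those of the hypodermis were then 388 to 797 and 763 to 1019 CPM. The part of neighbouring tissues in the results was not tested. Keratinocyte markers summed to at most 7.19 CPM and neutrophil markers to at most 1.05 CPM over all 10 libraries. Genes of the Y chromosome were present in all 10 libraries, at both ages. Xist did not pass the filter on low counts in the shared fit of all first libraries. In the fit of the 10 coronal SM libraries alone it did, with all 5 sex-linked genes tested. The Y-linked genes Ddx3y, Eif2s3y, Kdm5d and Uty all fell in the first libraries, with a median of -0.62 (1 of 4 without E16.5 libraries 1 and 5), and none was called in the second, with a median of -0.05.

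Of 19768 genes tested, 2676 (13.5%) were higher at E18.5 and 2691 (13.6%) were lower, 27.1% in all, at a Benjamini-Hochberg adjusted p under 0.05 by edgeR's quasi-likelihood test in a fit of all 100 first libraries. All adjusted p-values below come from this kind of fit. Log2 fold changes are of E18.5 over E16.5 on a scale of TMM-normalised counts, on which the median gene moved by 0.00. The standard error (SE) given with them is the absolute change divided by the square root of its F statistic, a rough measure for genes near 0 counts. The shared fit takes its estimate of the spread from all sutures. Fitted alone, the 10 libraries gave 370 genes higher (2.01%) and 568 lower (3.08%) among 18440, and without E16.5 libraries 1 and 5 the shared fit gave 1706 higher (8.55%) and 1494 lower (7.49%) among 19952. The groups of 5 did not overlap for 800 genes (4.05%) that were higher and 570 (2.88%) that were lower. Scaling by total counts in place of TMM moved the median gene to 0.35 and the share of calls that were higher from 49.9% to 82.1%. Removal of a trend over gene length moved them to -0.17 and 35.8%, so that the balance of rises and falls depends on the scale. That removal left a trend of the opposite direction, with medians of -0.24 for genes under 1 kb and -0.09 for those of 8 kb or more. With counts summed by litter, 3 litters against 2, 43 genes were called, and of 165 genes named here that were called in the first libraries 23 were called at that level and 142 were not.

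The second libraries gave fewer calls, 131 higher (0.674%), 62 lower (0.319%) and 193 in all (0.993%) of 19440 genes. Of these, 143 were also called in the first libraries, 137 in the same direction, which is 2.69% of the first calls and 71% of the second calls among the 18524 genes tested in both. The 137 were 104 genes called higher in both sets (0.561%) and 33 called lower in both (0.178%), and 116 of them were also called without E16.5 libraries 1 and 5. Across genes, which are not independent, the log2 fold changes of the first and second libraries correlated with a Pearson's r of 0.22. Of the 5097 first calls tested in both, 3358 (65.9%) had the same sign in the second libraries, and of the 193 second calls, 173 (89.6%) had the same sign in the first. The account below puts first those genes that both sets called. Each count of list members is to be read against the shares over all genes, 27.1% called in the first libraries (13.5% higher and 13.6% lower) and 0.993% in the second. For counts without E16.5 libraries 1 and 5 the shares are 8.55% higher and 7.49% lower. For the 10 libraries alone they are 2.01% and 3.08%. With the length trend removed, 1965 of 19768 genes rose and 3522 fell.

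**Figure D2:**
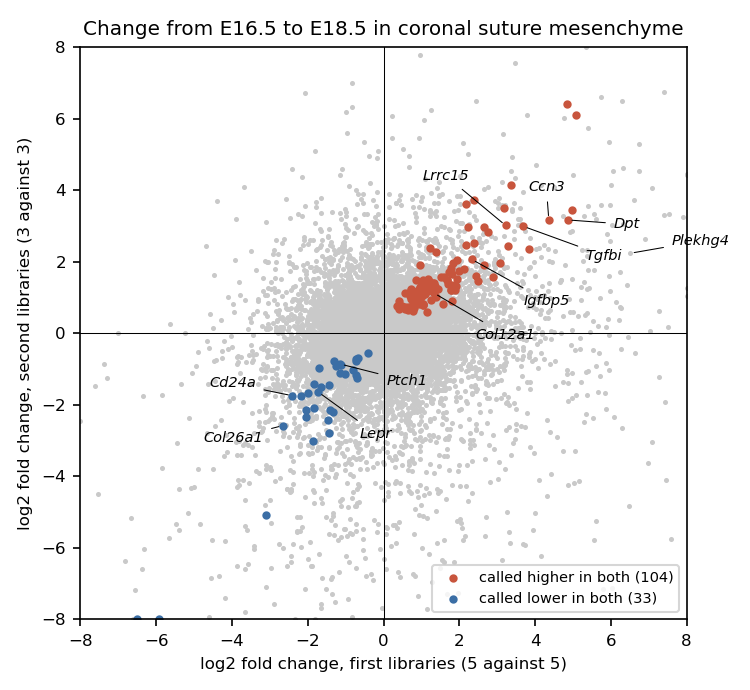
Log2 fold change from E16.5 to E18.5 in the first libraries of coronal SM (horizontal axis) against the second libraries (vertical axis), 1 point per gene tested in both, with values beyond 8 drawn at the edge. The 104 genes called higher in both (red) and the 33 called lower in both (blue) include Dpt, Ccn3, Tgfbi and Lrrc15 and, among the lower, Col26a1, Lepr, Cd24a and Ptch1.

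Many collagens and enzymes that shape them rose. Of 27 fibrillar, network and other collagens outside type I, 13 rose and 2 fell, with a median log2 change of 0.52 against 0.00 for all genes, and in the second libraries 5 rose and 2 fell, with a median of 0.40. Without E16.5 libraries 1 and 5, 9 rose and 1 fell. Col12a1 (chr9:79598991-79718831, minus strand, mm10), a collagen that decorates the surface of fibrils in dense connective tissue, was measured at 2655, 3558, 3656, 2006 and 2174 CPM at E16.5 and at 6528, 6473, 6933, 7538 and 7834 CPM at E18.5. Every E18.5 library lay above every E16.5 library, and the log2 change was 1.33 (SE 0.13, adjusted p = 2.8e-13). The second libraries gave 2434, 2435 and 2894 CPM against 5432, 6004 and 5415 CPM, a change of 1.12 (SE 0.12, adjusted p = 1.3e-05). Col3a1, the fibrillar collagen of pliable tissues, had a mean of 3226 ± 531 CPM at E16.5 and 5684 ± 1043 CPM at E18.5 (SD, n = 5), with no overlap, and a change of 0.82 in the first and 0.87 in the second libraries. Col5a1 and Col5a2, which encode the chains of type V collagen that starts fibril assembly, changed by 1.01 and 0.58 in the first libraries and by 1.03 and 0.67 in the second, all called. Col27a1, a fibrillar collagen of cartilage and growing tissues, went from 113 ± 23.6 to 289 ± 71.5 CPM, a change of 1.35 (adjusted p = 1.8e-09) that was 1.31 in the second libraries.

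Of the chains of type I collagen, the main protein of bone and tendon, Col1a2 rose by 0.65 (SE 0.16, adjusted p = 0.0012), from 7901 ± 799 to 12410 ± 2572 CPM without overlap, and by 0.65 in the second libraries. Col1a1 was at 7865 ± 1727 CPM at E16.5 and 9061 ± 1242 CPM at E18.5, with overlapping groups and a change of 0.20 (adjusted p = 0.43). The difference between the chains was not tested. In the second libraries Col1a1 was called, at 8108, 9559 and 8174 CPM against 15116, 13452 and 15531 CPM (0.77, adjusted p = 0.0019).

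Col26a1 (chr5:136741759-136883209, minus strand), a short secreted collagen-like protein, went the other way. It stood at 21.8, 38.2, 51.8, 23.1 and 32.2 CPM at E16.5 and at 4.78, 4.19, 5.38, 8.94 and 3.16 CPM at E18.5. The groups were far apart, and the log2 change was -2.66 (SE 0.24, adjusted p = 3.2e-14). The second libraries gave 96.1, 69.0 and 86.1 CPM against 17.7, 9.16 and 14.3 CPM, a change of -2.59 (SE 0.31, adjusted p = 8.1e-05). Col8a1, a network collagen that the study lists among markers of coronal mesenchyme, was at 151 to 591 CPM at E16.5 and 86.5 to 213 CPM at E18.5 (-1.23, adjusted p = 0.012), but at -0.01 in the second libraries, and it lost its call without E16.5 libraries 1 and 5 (-0.64, adjusted p = 0.32).

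Among 23 genes of collagen processing and crosslinking, 17 rose and none fell, with a median of 0.67, and without E16.5 libraries 1 and 5, 11 rose and none fell. In the second libraries 3 rose and 1 fell, with a median of 0.25. The lysyl oxidases Lox and Loxl2, which crosslink collagen and elastin, were called in both sets. Loxl2 was at 324 to 624 CPM at E16.5 and at 656 to 1074 CPM at E18.5 (0.88, adjusted p = 5.4e-05), and changed by 1.16 in the second libraries. Lox changed by 0.70 in the first libraries, where the lowest E18.5 library, at 628 CPM, lay below the highest E16.5 library, at 638 CPM, and by 1.03 in the second. P4ha2, a subunit of the prolyl hydroxylase that stabilises the collagen helix, rose from 53.8 ± 21.0 to 128 ± 23.9 CPM (1.25, adjusted p = 2.1e-06) and by 0.93 in the second libraries. Its partner subunit P4hb was called in the first libraries (1.13, adjusted p = 7.7e-08) and stood at 0.22 (adjusted p = 0.6) in the second. Fkbp10, a chaperone of procollagen, and Loxl1, a further lysyl oxidase, were likewise called in the first libraries (1.27 and 1.42) and not in the second (0.29 and 0.23).

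Adhesive and regulatory proteins of the matrix rose with them. Of 18 tendon-like and matricellular genes, 11 rose and 2 fell, with a median of 1.13 (9 and none without E16.5 libraries 1 and 5, with 1.12), and 2 of 17 rose and none fell in the second libraries, with a median of 0.78. Postn (chr3:54361109-54391037, plus strand), which encodes periostin, a matricellular protein of periosteum and fibrous joints, was measured at 2284, 1027, 1353, 1944 and 2254 CPM at E16.5 and at 2954, 4573, 2726, 3821 and 3618 CPM at E18.5. The groups did not overlap, and the log2 change was 1.00 (SE 0.19, adjusted p = 3.3e-05). The second libraries stood at 1132, 1089 and 941 CPM against 2750, 2481 and 2651 CPM (1.32, adjusted p = 0.015). Ccn3 (chr15:54745702-54754039, plus strand), a CCN-family protein that restrains proliferation in several skeletal cells, was at 2.98, 4.23, 5.15, 2.19 and 2.90 CPM at E16.5 and at 35.9, 96.7, 76.7, 60.2 and 92.7 CPM at E18.5. This was a change of 4.36 (SE 0.52, adjusted p = 6.0e-10) with a wide gap between the groups, and of 3.17 (adjusted p = 0.031) in the second libraries. The tenascins Tnc and Tnn and the thrombospondin Thbs3 rose by 0.89, 1.26 and 2.32 without overlap in the first libraries, and stood at 0.56, 0.98 and 1.68 in the second, where none was called (adjusted p = 0.11, 0.18 and 0.064).

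Tgfbi (chr13:56609523-56639562, plus strand), an adhesive matrix protein induced by TGF-beta, was at 0.252, 37.3, 27.7, 9.12 and 7.56 CPM at E16.5 and at 155, 165, 227, 203 and 311 CPM at E18.5. The log2 change was 3.69 (SE 0.42, adjusted p = 7.1e-11), and in the second libraries, with 14.3, 39.3 and 47.6 against 166, 312 and 324 CPM, it was 2.98 (SE 0.46, adjusted p = 0.0014). Dpt, which encodes dermatopontin, a small protein that binds decorin and collagen, went from 4.35 ± 3.82 to 129 ± 32.7 CPM (4.86, SE 0.67, adjusted p = 3.2e-08) and by 3.16 in the second libraries. Lrrc15, a membrane protein of matrix-producing fibroblasts, was at 13.7 to 85.4 CPM at E16.5 and at 270 to 522 CPM at E18.5 (3.22, adjusted p = 5.0e-14), with 3.01 in the second libraries. Fndc1, a fibronectin-domain protein, and Ssc5d, a secreted scavenger-receptor protein, both chosen after their values were seen, rose by 1.61 and 3.18 in the first and by 1.57 and 3.50 in the second.

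**Figure D3:**
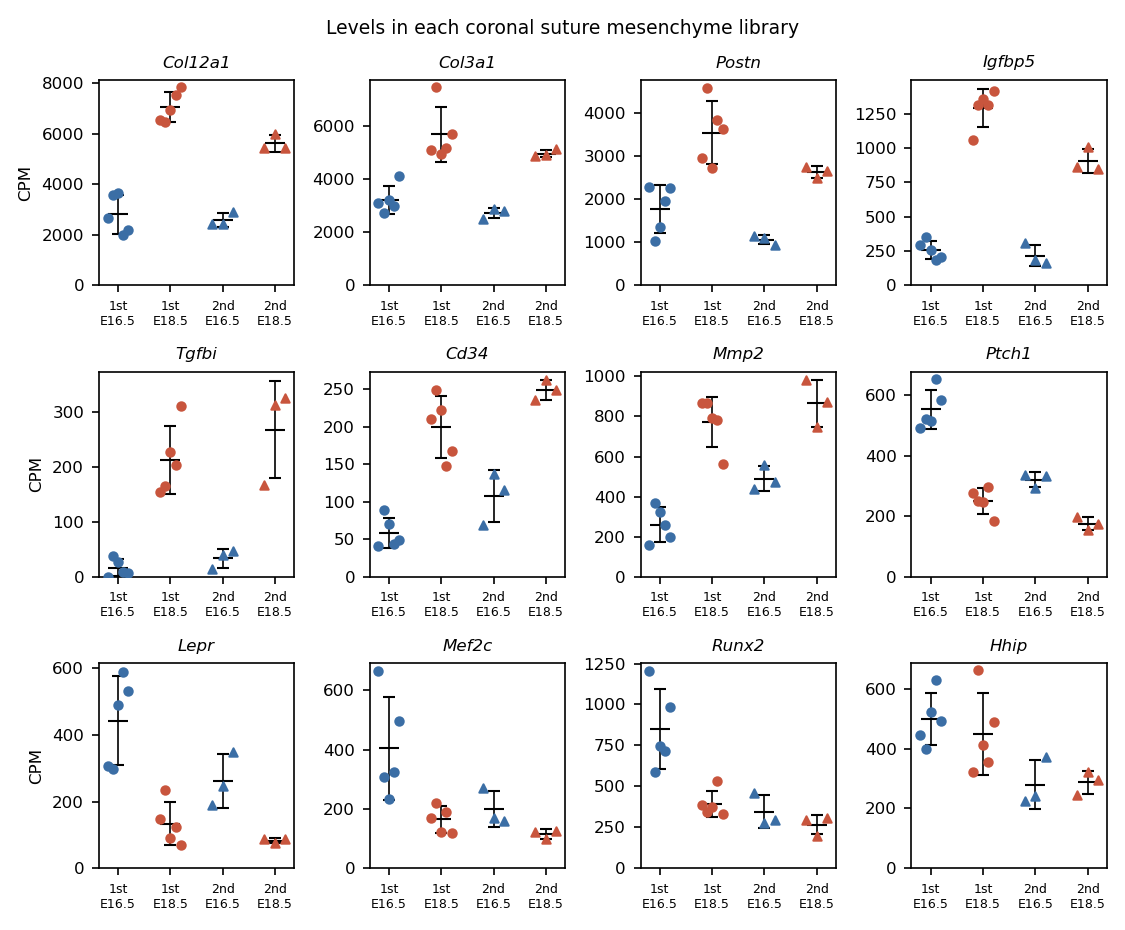
TMM-normalised CPM of 12 genes in each coronal SM library, first libraries as circles and second libraries as triangles, E16.5 in blue and E18.5 in red, with the mean and SD of each group. Col12a1, Col3a1, Postn, Igfbp5, Tgfbi, Cd34 and Mmp2 are higher at E18.5 in both sets, Ptch1, Lepr and Mef2c are lower in both, Runx2 is called only in the first set, and Hhip is called in neither.

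Of 12 matrix metalloproteinases and their inhibitors, 6 rose and none fell, with a median of 1.06 (4 and none without E16.5 libraries 1 and 5, with 0.85), and 4 rose and none fell in the second libraries, with a median of 0.64. Mmp2 (chr8:92827291-92853420, plus strand), a gelatinase of fibroblasts, was at 157, 366, 325, 259 and 197 CPM at E16.5 and at 868, 866, 791, 781 and 564 CPM at E18.5. No library of one age reached the other age, and the change was 1.57 (SE 0.20, adjusted p = 1.8e-09), against 0.82 (SE 0.20, adjusted p = 0.048) in the second libraries. Mmp16, a membrane-bound metalloproteinase, rose by 1.04 and 0.79 in the first and second libraries. Timp2, a secreted inhibitor of these enzymes, was called only in the second libraries (1.09, adjusted p = 0.0035), with 0.34 (adjusted p = 0.076) in the first. The serine protease Htra3, chosen after its values were seen, rose from 4.25 ± 2.84 to 35.5 ± 4.34 CPM (3.07) and by 1.97 in the second libraries.

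Small leucine-rich proteoglycans, which bind collagen fibrils and set their diameter, went both ways: of 14, 3 rose and 3 fell, with a median of 0.39, while 3 of 13 rose and none fell in the second libraries, with a median of 0.63. Dcn, which encodes decorin, was at 105, 17.9, 21.8, 29.4 and 41.6 CPM at E16.5 and at 74.7 to 118 CPM at E18.5 (1.16, adjusted p = 7.8e-04). E16.5 library 1 alone overlapped the older group, and without E16.5 libraries 1 and 5 the change was 2.05. Bgn, Lum and Aspn, which encode biglycan, lumican and asporin, were called only in the second libraries, at 0.92, 0.69 and 0.96, against -0.15, 0.37 and 0.42 in the first. Omd, which encodes osteomodulin, fell by 1.74 in the first libraries on the log2 scale and stood at -0.38 in the second.

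Of 16 elastic fibre genes, 5 rose and 1 fell, beside 27.1% of all genes called, with a median of 0.58 (4 and 1 without E16.5 libraries 1 and 5), and 1 rose in the second libraries, beside 0.993% of all genes called, with a median of 0.34. That one was Ltbp4, which stores latent TGF-beta in the matrix, at 26.6 to 160 CPM at E16.5 and 144 to 201 CPM at E18.5 (1.05 in the first and 0.81 in the second libraries). Ltbp3, a protein of the same kind, rose by 1.05 in the first libraries without overlap and stood at 0.91 (adjusted p = 0.11) in the second. Fbn1, which encodes the main protein of microfibrils, changed by 0.76 (adjusted p = 0.0096) but by 0.54 (adjusted p = 0.17) without E16.5 libraries 1 and 5. Efemp1, a fibulin, was the member that fell, from 88.0 ± 41.8 to 26.7 ± 2.79 CPM (-1.72), with -1.07 (adjusted p = 0.24) in the second libraries.

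Genes that mark fibroblast progenitors were called in both directions in the first libraries, where 5 of 17 rose and 3 fell, with a median of 0.38. In the absence of E16.5 libraries 1 and 5, 4 rose and 1 fell, with a median of 1.00, and in the second libraries 4 rose and none fell, with a median of 0.72. Cd34 (chr1:194938819-194961279, plus strand), a surface sialomucin of progenitors and of endothelium, was at 40.5, 88.8, 69.8, 43.5 and 49.0 CPM at E16.5 and at 210, 248, 222, 147 and 168 CPM at E18.5. The groups did not overlap, and the change was 1.77 (SE 0.22, adjusted p = 2.4e-09), with 1.21 (SE 0.23, adjusted p = 0.0086) in the second libraries, where 69.0, 137 and 116 CPM stood against 235, 262 and 248 CPM. None of 10 endothelial markers was called in the first libraries, where their sum was 142 to 561 CPM at E16.5 and 247 to 369 CPM at E18.5. In the second libraries 1 fell, the list's median was -0.63, and the sum was 416 to 611 CPM at E16.5 and 266 to 389 CPM at E18.5, lower without overlap. Gpx3, a secreted glutathione peroxidase, rose by 2.12 and 1.79 in the first and second libraries. The 8 hypodermis markers, of cells outside the suture, summed to 190 to 593 CPM at E16.5 and 592 to 808 CPM at E18.5, and to 527 to 630 against 686 to 780 CPM in the second libraries. In the first libraries 2 of 7 rose and 2 fell, and none was called without E16.5 libraries 1 and 5 or in the second libraries. Of the 8, Pi16 and Clec3b were at or near 0: Pi16 exceeded 0.284 CPM in 1 library only, E16.5 library 1 at 10.5 CPM, which alone gave its call (-3.43, adjusted p = 0.0061), and without that library its change was 3.23. Clec3b had no count in any of the 10 first libraries. Dpp4, a marker of the same cells, was at 0.342 to 4.78 CPM at E16.5 and at 1.65 to 5.06 CPM at E18.5 (0.38, adjusted p = 0.73).

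Among the genes by which the study marks populations of coronal mesenchyme, 5 rose and 4 fell of 11, with a median of 0.04 in both sets (4 and 3 without E16.5 libraries 1 and 5, with -0.14), and 2 rose and none fell in the second libraries. The study chose these genes on samples of the same series, so that they are no independent list. Hhip (chr8:79965851-80058006, minus strand), a membrane protein that binds hedgehog ligands and limits their reach, was at 444, 399, 524, 628 and 494 CPM at E16.5 and at 322, 663, 413, 355 and 490 CPM at E18.5. The groups overlapped throughout, with a change of -0.15 (SE 0.33, adjusted p = 0.78), and the second libraries, with 224, 241 and 373 against 245, 322 and 294 CPM, gave 0.04 (SE 0.20, adjusted p = 0.98).

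Erg and Sox6, transcription factors of the same populations, fell in the first libraries without overlap, but the second libraries did not show it. Erg was at 756, 747, 943, 810 and 1202 CPM at E16.5 and at 344, 269, 403, 464 and 350 CPM at E18.5 (-1.28, SE 0.30, adjusted p = 7.3e-04), while the second libraries had 187, 257 and 227 against 249, 179 and 204 CPM (-0.09, adjusted p = 0.97). Sox6 changed by -0.59 (adjusted p = 0.0015) and by -0.09 in the second libraries. The imprinted gene Mest, of which 23.1% of the exonic bases are shared with another annotated gene, changed by -0.61 (adjusted p = 0.013) and by -0.17 (adjusted p = 0.89). Of the rises, Angptl2, a secreted angiopoietin-like protein, was called in both sets (268 ± 121 to 860 ± 126 CPM, a change of 1.68, and 1.48 in the second libraries). Igfbp3, Itgb5 and Adamts8 rose in the first libraries (1.22, 1.20 and 1.09) and stood at 0.62, 0.45 and 0.81 in the second, none of them called, and Adamts8 also lost its call without E16.5 libraries 1 and 5 (0.90, adjusted p = 0.22).

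Binding proteins of insulin-like growth factors, which hold these factors outside the cell and set their supply to the receptor, carried some of the steepest rises. Of 15 genes of the IGF pathway, 6 rose and 2 fell, with a median of 0.50, and 4 rose and none fell in the second libraries, with a median of 0.62. Igfbp5 (chr1:72857932-72874884, minus strand), a binding protein held in bone and other matrices, was at 290, 350, 260, 187 and 203 CPM at E16.5 and at 1055, 1316, 1357, 1313 and 1416 CPM at E18.5. The log2 change was 2.32 (SE 0.29, adjusted p = 1.4e-09), the lowest E18.5 library lay far above the highest E16.5 library, and the second libraries gave 305, 183 and 162 against 864, 1009 and 846 CPM (2.06, SE 0.24, adjusted p = 6.8e-05). Its neighbour on chromosome 1, Igfbp2 (chr1:72824503-72852474, plus strand), went from 1.72, 0.813, 3.99, 1.49 and 0.847 CPM to 25.6, 37.9, 26.1, 17.3 and 21.6 CPM (3.83, SE 0.49, adjusted p = 3.0e-09), and changed by 2.34 in the second libraries. Igfbp7, which binds the factors weakly, rose by 1.79 in the first and 1.81 in the second libraries.

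The growth factors themselves were less clear. Igf1 was at 284 to 668 CPM at E16.5 and at 681 to 811 CPM at E18.5, without overlap but with an adjusted p of 0.088 (0.63, SE 0.28), and it was called in the second libraries (1.38, adjusted p = 0.014). Without E16.5 libraries 1 and 5 it was called in the first set as well (0.96, adjusted p = 0.034). Igf2, the foetal growth factor, fell by 1.05 on the log2 scale in the first libraries (adjusted p = 8.9e-06), from 174 ± 53.9 to 83.7 ± 17.7 CPM, and stood at -0.03 (adjusted p = 0.99) in the second. Other annotated genes overlap 64.5% of its exonic bases, so that its count is uncertain.

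Of 12 transcription factors that act in osteoblast formation 1 rose and 5 fell, beside 13.5% and 13.6% of all genes, with a median of -0.59, and none rose and 2 fell in the second libraries, with a median of -0.30. Mef2c (chr13:83504034-83667080, plus strand), which acts in chondrocytes, osteoblasts and muscle, was at 663, 306, 234, 323 and 497 CPM at E16.5 and at 171, 221, 122, 190 and 118 CPM at E18.5. The groups did not overlap, and E16.5 libraries 1 and 5 were the highest. The change was -1.30 (SE 0.23, adjusted p = 7.3e-06), and -0.83 (adjusted p = 0.0095) without those libraries. The second libraries, with 269, 171 and 160 against 121, 97.7 and 127 CPM, gave -0.79 (SE 0.17, adjusted p = 0.019). Runx2 (chr17:44495987-44814797, minus strand), the master factor of the osteoblast lineage, was at 1203, 590, 749, 716 and 985 CPM at E16.5 and at 387, 341, 373, 530 and 329 CPM at E18.5. It did not overlap in the first libraries (-1.11, SE 0.14, adjusted p = 9.4e-10), but the second libraries had 460, 277 and 296 against 293, 199 and 306 CPM and no call (-0.37, SE 0.19, adjusted p = 0.51). Sp7, which acts after Runx2, was at 84.9 ± 29.3 and 71.7 ± 10.2 CPM (-0.24, adjusted p = 0.55), and the member that rose was Atf4 (0.60), a factor of amino acid supply and late osteoblasts.

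Of 22 genes of bone matrix and mineralization, 5 rose and 2 fell, beside 27.1% of all genes called, with a median of 0.30 (4 and 1 without E16.5 libraries 1 and 5, with 0.52), and in the second libraries 4 rose and 1 fell of 21, with a median of 0.03. Enpp1 (chr10:24637914-24712159, minus strand), whose enzyme makes pyrophosphate, an inhibitor of mineral growth, was at 54.9, 191, 190, 128 and 32.8 CPM at E16.5 and at 487, 592, 628, 752 and 672 CPM at E18.5. This change of 2.39 (SE 0.33, adjusted p = 3.6e-08) was 2.51 (SE 0.30, adjusted p = 6.8e-05) in the second libraries, with 32.7, 99.6 and 115 against 413, 519 and 477 CPM. Sparc, which encodes osteonectin, rose by 0.92 and 0.80 in the 2 sets. Panx3, a channel protein of bone and cartilage cells, fell in both (-1.25 and -0.91), although E16.5 libraries 1 and 5, at 441 and 256 CPM, stood above the other 3, at 119 to 180 CPM, and without them it lost its call (-0.62, adjusted p = 0.31). Alpl, Ibsp, Spp1 and Bglap were not called in either set, with changes in the first libraries of 0.31, -1.01, 0.28 and -0.63 (adjusted p = 0.46, 0.28, 0.79 and 0.73). Ibsp, which encodes bone sialoprotein and marks cells of the mineralizing front, ranged from 149 to 661 CPM at E16.5 and from 24.1 to 355 CPM at E18.5, the widest spread among these 4.

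Of 12 markers of suture stem cells, 2 rose and 3 fell, with a median of -0.10 (1 and 2 without E16.5 libraries 1 and 5), and 1 fell in the second libraries. Lepr (chr4:101717404-101815352, plus strand), the leptin receptor, which marks skeletal stromal progenitors, was that gene. It was at 305, 297, 489, 589 and 531 CPM at E16.5 and at 148, 236, 91.1, 125 and 70.2 CPM at E18.5 (-1.72, SE 0.29, adjusted p = 2.5e-06). The groups did not overlap, and the second libraries had 191, 246 and 348 against 87.0, 74.8 and 87.8 CPM (-1.65, SE 0.24, adjusted p = 6.5e-04). Gli1, a hedgehog target that marks progenitors in mature sutures, was at 22.2 to 92.1 CPM and 19.3 to 53.1 CPM (-0.48, adjusted p = 0.23), and Axin2, a WNT target with the same use, stood at 0.03. Prrx1 fell by 0.59 on the log2 scale (adjusted p = 1.4e-05) and stood at -0.02 in the second libraries.

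In the hedgehog pathway, 1 of 16 genes rose and 3 fell, beside 27.1% of all genes called, with a median of -0.27, and in the second libraries 1 of 17 rose and 1 fell, with a median of -0.05. Without E16.5 libraries 1 and 5, none rose and 6 fell, with a median of -0.52. Ptch1 (chr13:63508328-63573598, minus strand), the receptor for hedgehog ligands and a target that the pathway itself induces, was at 491, 520, 516, 653 and 584 CPM at E16.5 and at 183 to 296 CPM at E18.5. The change was -1.14 (SE 0.22, adjusted p = 3.0e-05) with a clear gap, and in the second libraries, with 337, 294 and 333 against 199, 154 and 175 CPM, it was -0.87 (SE 0.16, adjusted p = 0.006). Gli2, the activating factor of the pathway, fell by 0.84 in the first libraries on the log2 scale and stood at -0.66 (adjusted p = 0.067) in the second. Gli3, the source of the repressor of the pathway, fell by 0.39 and stood at 0.11 in the second. Scube2, a secreted protein that helps release hedgehog ligands, was called higher in both sets (1.39 and 2.27), with E16.5 library 1 at 0.505 CPM and the other 4 at 10.3 to 45.0 CPM, and it lost its call without E16.5 libraries 1 and 5 (0.81, adjusted p = 0.16). Ihh, the ligand made by bone and cartilage cells, was not called in either set (-1.40 and -0.33), but it was without E16.5 libraries 1 and 5 (-2.05, adjusted p = 0.017).

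The promoters of 3 genes called in both sets are shown to give the sequence at their start sites, from 250 bases before to 50 after, as RefSeq gives them for GRCm38.p6. Capitals mark a TATA box (TATAAA) or a GC box (GGGCGG), searched on both strands.
Postn (chr3:54360857-54361156, plus strand): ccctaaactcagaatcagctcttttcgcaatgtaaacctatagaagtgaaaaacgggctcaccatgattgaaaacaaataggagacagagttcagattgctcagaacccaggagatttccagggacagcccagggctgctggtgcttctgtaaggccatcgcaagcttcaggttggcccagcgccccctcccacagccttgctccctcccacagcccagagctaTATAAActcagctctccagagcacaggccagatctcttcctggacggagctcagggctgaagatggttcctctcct
Tgfbi (chr13:56609336-56609635, plus strand): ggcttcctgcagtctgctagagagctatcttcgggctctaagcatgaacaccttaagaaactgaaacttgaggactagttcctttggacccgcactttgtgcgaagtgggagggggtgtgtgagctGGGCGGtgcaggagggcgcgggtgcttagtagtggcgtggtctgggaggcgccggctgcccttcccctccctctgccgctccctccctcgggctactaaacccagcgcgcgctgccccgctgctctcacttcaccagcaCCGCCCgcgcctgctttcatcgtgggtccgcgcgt
Ptch1 (chr13:63565686-63565985, minus strand): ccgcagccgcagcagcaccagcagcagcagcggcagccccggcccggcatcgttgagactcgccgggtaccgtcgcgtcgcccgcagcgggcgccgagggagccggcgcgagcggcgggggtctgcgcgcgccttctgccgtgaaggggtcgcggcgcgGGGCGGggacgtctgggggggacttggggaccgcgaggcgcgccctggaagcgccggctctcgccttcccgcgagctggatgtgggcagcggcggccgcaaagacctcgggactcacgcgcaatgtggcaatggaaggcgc

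These windows are shown because each holds a match. This Postn window holds 1 TATA box, and the Tgfbi and Ptch1 promoters hold 2 and 1 GC boxes. The Ptch1 window is at a start inside the gene span given above, not at the outer end of that span. The other Postn start that RefSeq lists (chr3:54359017-54359316) and the Cd34 promoter, also of a gene called in both sets, hold 0 matches. A TATA box was present in 13.6% of all 32851 promoters and a GC box in 35.7%, and in 7.55% and 58.4% of the 15251 promoters of genes tested here. Promoters were found for 74 of the 104 genes called higher in both sets and for 20 of the 33 called lower, and 10.4% and 20% of those promoters held a TATA box, while 62.5% and 42.9% held a GC box. The GLI motif GACCACCCA, searched on both strands, was in 0.253% of all promoters, in none of the 16 promoters of hedgehog pathway genes and in none of those of the genes called in both sets. These shares are descriptions of 300-base windows.

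Of 44 genes of the WNT pathway, 4 rose and 12 fell, beside 27.1% of all genes called, with a median of -0.05 (2 and 9 without E16.5 libraries 1 and 5, with -0.18), and 2 rose and 1 fell of 45 in the second libraries, with a median of -0.02. Rspo2 (chr15:43020794-43170826, minus strand), a secreted agonist that keeps WNT receptors on the cell surface, was at 1.57, 0.00, 0.0415, 0.960 and 0.00 CPM at E16.5 and at 12.8, 6.87, 14.4, 24.5 and 15.1 CPM at E18.5. It was near the floor in every E16.5 library and present in every E18.5 library (4.83, SE 0.78, adjusted p = 1.4e-06), and changed by 6.42 (adjusted p = 0.042) in the second. Its relative Rspo1 went the other way, from 26.8, 33.9, 32.4, 27.0 and 71.7 CPM to 16.4, 11.6, 15.9, 15 and 12.2 CPM (-1.43, SE 0.32, adjusted p = 3.7e-04), with -1.45 (adjusted p = 0.035) in the second libraries. Lef1 and Tcf7, which carry the WNT signal to its target genes, fell without overlap in the first libraries (-1.73 and -1.56) and stood at -0.79 and -0.91 in the second (adjusted p = 0.52 and 0.053). Dkk3, a secreted relative of the WNT inhibitors, was called higher in both sets (0.58 and 1.12), though it lost its call without E16.5 libraries 1 and 5 (0.45, adjusted p = 0.064). Wif1, an inhibitor that binds WNT ligands, fell by 1.09 on the log2 scale in the first libraries.

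In the BMP pathway 2 of 31 genes rose and 9 fell, beside 27.1% of all genes called, with a median of 0.01 (2 and 6 of 30 without E16.5 libraries 1 and 5), and in the second libraries 1 fell, with a median of 0.07. Bmper, a secreted modulator of BMP ligands, was called in both, from 7.91 ± 3.95 to 1.73 ± 1.15 CPM (-2.17, adjusted p = 6.0e-06) and by -1.76 in the second libraries. The receptors Bmpr2 and Bmpr1a and the ligand Bmp4 fell in the first libraries (-1.15, -0.86 and -1.51) and had the opposite sign in the second (0.19, 0.18 and 0.68, none called). Fstl1, a follistatin-like secreted protein, rose from 1014 ± 111 to 1812 ± 235 CPM (0.84, adjusted p = 1.8e-07), with 0.59 (adjusted p = 0.078) in the second libraries.

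In the TGF-beta pathway 6 of 14 genes rose and 2 fell, with a median of 0.27 (4 and 1 without E16.5 libraries 1 and 5, with 0.15), and 2 rose in the second libraries, with a median of 0.50. These were Tgfbi and the ligand Tgfb1, which went from 5.93 ± 3.15 to 11.1 ± 2.67 CPM (0.90, adjusted p = 0.019, and 1.04 in the second libraries) and lost its call without E16.5 libraries 1 and 5 (0.55, adjusted p = 0.28). Inhba, which encodes an activin chain, fell by 1.49 in the first libraries on the log2 scale and stood at 0.93 in the second, and E16.5 libraries 1 and 5, at 445 and 615 CPM, lay above the other 3 at 132 to 253 CPM.

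In the FGF pathway 3 of 21 genes rose and 3 fell, with a median of -0.16 (2 and 3 without E16.5 libraries 1 and 5), in the NOTCH pathway 2 of 15 fell, with a median of -0.12, and no gene of either was called in the second libraries. The receptor Fgfr3 rose by 1.41, the feedback inhibitor Spred2 fell by 0.73, and the receptor Notch3, which also marks pericytes, fell by 1.39 on the log2 scale, all without overlap in the first libraries. In the second libraries Spred2 had the opposite sign, while Fgfr3 and Notch3 kept theirs. Of 17 retinoic acid genes 6 rose, with a median of 0.72 (4 without E16.5 libraries 1 and 5, with 0.42). None of 16 was called with the 10 libraries alone, 5 rose and 3 fell with the length trend removed, and none of 16 was called in the second libraries. Of 19 genes of the glucocorticoid response, 3 rose and 2 fell, with a median of 0.43 (2 and 2 without E16.5 libraries 1 and 5), among them Tsc22d3 (1.51), while Fkbp5 was not called (0.54, adjusted p = 0.09). Klf9, a further steroid-induced factor, was the 1 member called in the second libraries (1.54), with 0.71 (adjusted p = 0.058) in the first.

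**Figure D4:**
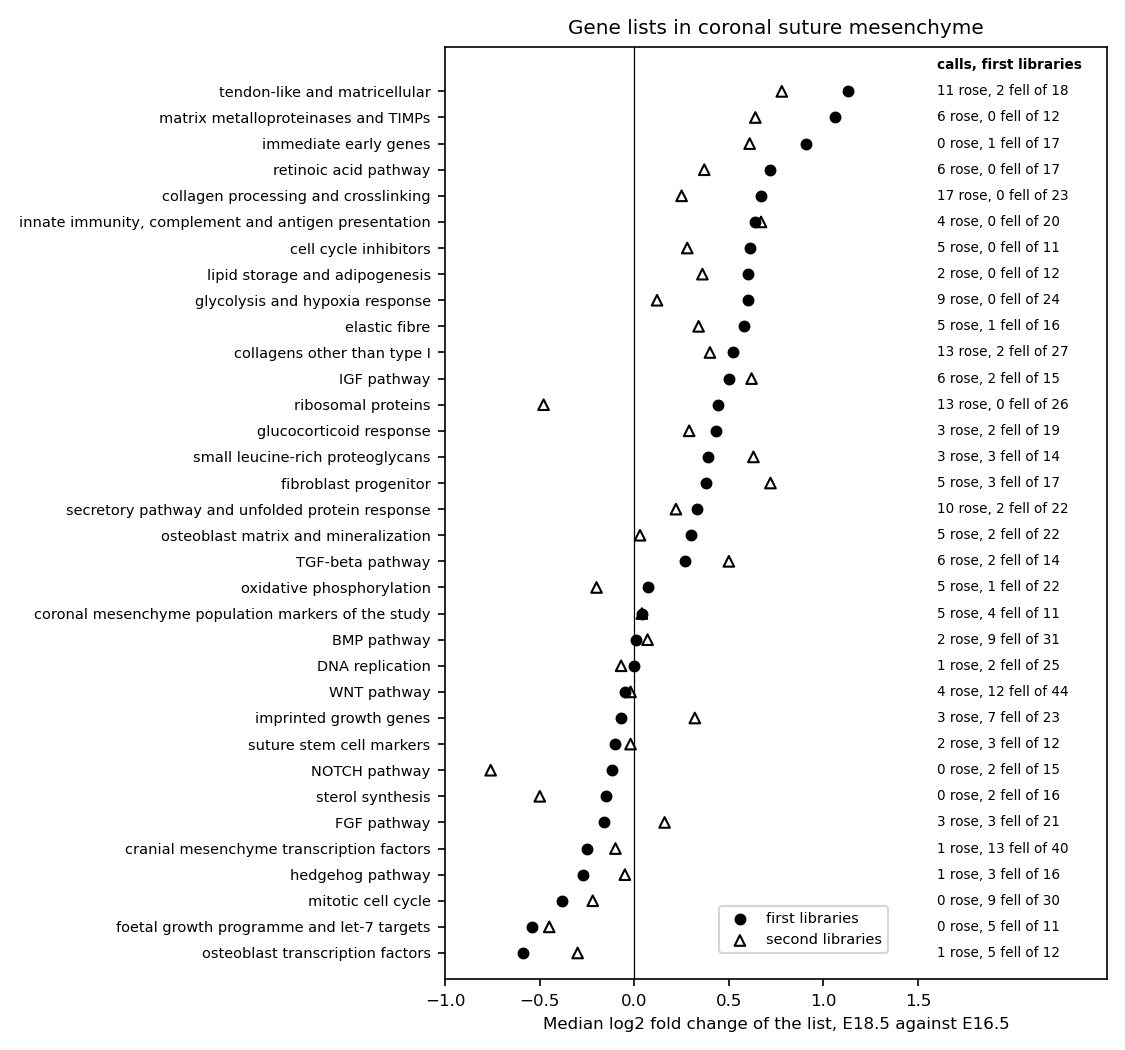
Median log2 fold change from E16.5 to E18.5 of each gene list in the first (filled circles) and second (open triangles) libraries, with the number of members called higher and lower in the first libraries and the number tested. The medians of tendon-like, metalloproteinase and collagen lists lie above 0 in both sets, that of osteoblast transcription factors lies below 0 in both, and that of ribosomal proteins changes sign.

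Genes of the foetal growth programme, which let-7 microRNAs restrain late in gestation, were 11. Of these, none rose and 5 fell, with a median of -0.54 (4 fell without E16.5 libraries 1 and 5), and 1 fell in the second libraries, with a median of -0.45. That gene was Igf2bp1, an RNA-binding protein of foetal tissues, at 33.4, 43.0, 43.3, 23.2 and 47.0 CPM at E16.5 and 30.3, 19.6, 15.5, 15.8 and 26.6 CPM at E18.5 (-0.82, SE 0.18, adjusted p = 3.4e-04, with overlap). The second libraries had 61.9, 61.1 and 55.7 against 35.6, 27.9 and 23.0 CPM (-1.04, SE 0.19, adjusted p = 0.0065). Hmga2, a chromatin protein of proliferating foetal cells, fell by 1.70 on the log2 scale in the first libraries, where the E18.5 library at 11.3 CPM reached past the E16.5 library at 10.6 CPM, and stood at -1.09 (adjusted p = 0.53) in the second. Lin28b was low, with 0.0415 to 16 CPM and 0.00 to 2.13 CPM, and was not called (-2.56, adjusted p = 0.07).

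Of 23 imprinted growth genes 3 rose and 7 fell, with a median of -0.07 (1 and 6 without E16.5 libraries 1 and 5), and 1 rose in the second libraries, with a median of 0.32. H19, the non-coding RNA beside Igf2, was at 4091 ± 1437 CPM at E16.5 and 5332 ± 1241 CPM at E18.5, with overlap (0.38, adjusted p = 0.062) and 0.07 in the second libraries. Peg10, Slc38a4 and Grb10 fell by 0.89, 0.71 and 0.53, and Cdkn1c, a growth-arresting inhibitor of cyclin-dependent kinases, rose by 0.63. Of the exonic bases of Cdkn1c, 30.7% are shared with other annotated genes.

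Of 30 mitotic genes none rose and 9 fell in the first libraries, where 13.6% of all genes fell, with a median of -0.38. In a fit without E16.5 libraries 1 and 5, 2 of the 30 fell, beside 7.49% of all genes, with a median of -0.30. None was called in the second set, with a median of -0.22. Mki67, which encodes the proliferation antigen Ki-67, was at 2589, 1047, 1502, 1139 and 3187 CPM at E16.5 and at 954, 620, 796, 1100 and 769 CPM at E18.5 (-1.16, adjusted p = 2.2e-05). The E16.5 libraries 1 and 5 were the highest, the change without them was -0.55 (adjusted p = 0.065), and the second libraries gave -0.16 (adjusted p = 0.74). Top2a, needed to separate chromosomes, changed by -0.45 (adjusted p = 0.036) and by -0.25 (adjusted p = 0.37) without them. Of 25 DNA replication genes 1 rose and 2 fell (1 and none without E16.5 libraries 1 and 5). Of 11 cell cycle inhibitors 5 rose and none fell, with a median of 0.61 (6 and none without E16.5 libraries 1 and 5). None of 10 was called with the 10 libraries alone, 3 rose and 2 fell with the length trend removed, with a median of 0.23, and none was called in the second libraries, with a median of 0.28.

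Of 40 transcription factors of cranial mesenchyme 1 rose and 13 fell, beside 13.5% and 13.6% of all genes, with a median of -0.25 (1 and 9 without E16.5 libraries 1 and 5, with -0.18). In the second libraries 1 rose and none fell, with a median of -0.10. Zic1, Foxc1 and Foxp2, which pattern the skull and its membranes, fell by 1.20, 1.39 and 1.19 on the log2 scale and stood at -0.76, -0.32 and -0.29 in the second libraries, none called. Meox1, a homeobox factor of fibroblasts and somites, rose by 2.30 without overlap and stood at 1.76 (adjusted p = 0.35) in the second. Alx1, a homeobox factor of frontonasal mesenchyme, was the gene called in the second libraries (1.41), with 0.59 (adjusted p = 0.097) in the first. Twist1, whose loss of function in humans closes the coronal suture early, was at 44.1 ± 6.56 CPM at E16.5 and 44.5 ± 19.6 CPM at E18.5 (0.01, adjusted p = 0.97).

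Macrophage markers were higher at E18.5 in both sets. Of 12, 11 rose and 1 fell, with a median of 1.66 (8 and none without E16.5 libraries 1 and 5, with 1.28), and 4 rose and none fell in the second libraries, with a median of 1.15. Their sum was 52.5 to 122 CPM at E16.5 and 265 to 362 CPM at E18.5, and 138 to 165 against 291 to 427 CPM in the second libraries, so that the ages did not overlap in either set. None of the 12 markers was at 0 in all libraries. Csf1r, the receptor that macrophages need to survive, was at 8.89, 6.67, 25.3, 17.3 and 4.35 CPM at E16.5 and at 44.4, 36.3, 60.3, 43.2 and 50 CPM at E18.5 (1.90, SE 0.26, adjusted p = 2.3e-08), with 1.33 (adjusted p = 0.032) in the second libraries. F13a1, Mrc1 and Pf4, which mark resident tissue macrophages, were also called in both, at 1.52, 1.29 and 2.90 in the first and 1.57, 1.39 and 1.57 in the second libraries. The scavenger receptor Cd163 was the member that fell (-1.35, adjusted p = 0.037), with E16.5 library 5 at 29.7 CPM and the other 4 at 7.68 to 12 CPM, and it was not called without E16.5 libraries 1 and 5 (-0.88, adjusted p = 0.29).

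Fam167a also rose in both sets, by 2.23 in the first and 2.95 in the second libraries. Of the other cell types, 1 of 12 chondrocyte markers rose, Acan, which encodes aggrecan, from 57.6 ± 26.2 to 223 ± 46.7 CPM (1.95, and 1.5 in the second libraries), while Col2a1, the defining collagen of cartilage, was not called (-0.88). Erythroid markers, mostly globins, summed to 89.2 to 457 and 78.8 to 269 CPM in the first libraries, with 1 fall of 7 (none without E16.5 libraries 1 and 5), but to 2767 to 4881 CPM at E16.5 and 330 to 680 CPM at E18.5 in the second, where 4 of 7 fell. Slc25a37, an iron carrier of mitochondria that erythroid cells use, fell in both sets (-1.83 and -1.42). The part of macrophages and blood in the other results was not tested.

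Energy and protein synthesis genes changed with the library set. Of 26 ribosomal protein genes 13 rose and none fell in the first libraries, with a median of 0.44, whereas none rose and 7 fell in the second, with a median of -0.48, and without E16.5 libraries 1 and 5, 5 rose and none fell. Genes called in opposite directions in the sets included the ribosomal protein genes Rps9, Rps4x and Rpl13, and Rack1, whose product binds the ribosome. Of 24 glycolysis genes 9 rose, with a median of 0.60 (5 without E16.5 libraries 1 and 5, with 0.63), and none was called in the second libraries, with a median of 0.12. Aldoa, the muscle-type aldolase, gave 1.11 and 0.05. All 13 listed mitochondrially encoded genes fell in the first libraries, with a median of -2.30 (9 without E16.5 libraries 1 and 5, with -1.41), and none was called in the second, with a median of 0.13. Genes with under 1 kb of exons had a median of 0.12 and those with 8 kb or more had -0.21 in the first libraries, against -0.02 and 0.00 in the second. The ribosomal list therefore has no direction that holds for both sets.

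The largest changes with no overlap and at least 10 CPM in 1 age, outside predicted gene models, include several genes named above (Dpt, Rspo2, Ccn3, Igfbp2 and Tgfbi among the rises, Col26a1 among the falls). Of the rises under that rule, the steepest was that of Plekhg4, a guanine nucleotide exchange factor, from 0.00 to 0.353 CPM at E16.5 to 8.18 to 29.8 CPM at E18.5 (6.51, SE 0.91, adjusted p = 4.5e-08), with 2.23 (adjusted p = 0.072) in the second libraries. Duoxa1, a maturation factor of dual oxidases, rose by 5.07 and by 6.11 in the second libraries (adjusted p = 0.048). Npas2, a partner of the circadian clock, was at 3.28, 0.770, 2.62, 1.65 and 0.00 CPM at E16.5 and at 27.2, 33.3, 28, 25.6 and 31.9 CPM at E18.5 (4.11, SE 0.38, adjusted p = 4.1e-14), with 2.37 (adjusted p = 0.055) in the second libraries. Oasl2, an interferon-induced gene, Kcnn4, a potassium channel, and Tppp3, a tubulin-binding protein of tendon sheath progenitors, rose by 4.34, 4.03 and 3.63 and stood at 0.59, 2.35 and 3.04 in the second set, none called.

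Among the falls, Sema6a, a membrane semaphorin, had the highest levels, at 707, 333, 194, 207 and 600 CPM at E16.5 and at 71.2, 52.9, 65.3, 102 and 50.2 CPM at E18.5 (-2.58, SE 0.26, adjusted p = 6.6e-13). E16.5 libraries 1 and 5 were again the highest, and without them the change was -1.86 (adjusted p = 5.8e-08), with -0.90 (adjusted p = 0.072) in the second libraries. Slc26a7, an anion exchanger, Mdga2 and Pcdh10, adhesion molecules, and Adamts18, a matrix protease, fell by 2.81, 3.52, 2.55 and 2.54 on the log2 scale and stood at -1.40, -1.42, -0.86 and -1.02 in the second set, none called. Smok4a, Stk32b, Rslcan18, Mgat4c and Slc35f1 fell by 6.67, 5.39, 3.23, 3.07 and 2.74. E16.5 library 5 stood at 61.6 CPM of Smok4a and 33.0 CPM of Mgat4c, and E16.5 library 1 at 61.2 CPM of Stk32b, each far from the rest of its group. Changes of these genes without those libraries are not given here. Ppargc1a, a coactivator of mitochondrial genes, fell by 2.83 but stood at 0.62 in the second set. Of 2 further genes chosen after their values were seen, Cd24a, a surface glycoprotein of immature cells, fell by 2.41 and 1.75 in the first and second sets, and Fstl4, a follistatin-like protein, by 1.83 and 2.09.

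The change with age in coronal SM was tested against the mean change of SM in the frontal, lambdoid and sagittal sutures. This difference does not take in the coronal fronts. It lay above for 2430 genes (12.3%) and below for 2282 (11.5%), while in those sutures by themselves 219, 155 and 104 genes rose and 242, 430 and 117 fell. Mitochondrial shares in those sutures went the other way with age, to medians of 23.2%, 19.2% and 21.0%. Without E16.5 coronal libraries 1 and 5, 3101 genes differed. The lambdoid and sagittal embryos came from other litters than the coronal ones, and no fit by litter was run for this difference. Ccn3 lay above (5.54, SE 0.59, adjusted p = 2.5e-11): it changed by 4.36 in coronal SM and by -0.62, -2.12 and -0.80 in frontal, lambdoid and sagittal SM. The annexins Anxa2 and Anxa5 and their partner S100a10, proteins of the inner face of the membrane, and Crip1, a LIM protein, also lay above (2.05, 2.04, 2.52 and 3.32). Of these 4, Anxa5 was called higher in the second libraries (1.34), while Anxa2, S100a10 and Crip1 stood at 0.45, 0.78 and 1.35. Anxa5 rose by 1.40 in the FR front and by 1.40 in the PA front of the coronal suture too. Its difference from those fronts was 0.41 (SE 0.23, adjusted p = 0.28). Ccn3 also rose in the FR front. Below lay Sema6a (-2.51), Abi3bp (-3.02), a matrix protein that rose by 2.28 and 1.44 in frontal and lambdoid SM and stood at 0.97 (adjusted p = 0.071) in sagittal SM, the endothelin receptor Ednra (-1.93), the mitochondrial carrier Slc25a23 (-1.90) and the transcription factor Zfhx3 (-0.95), of which none was called in the second libraries.

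Several genes called in both library sets differed from the other sutures as well. The difference was 2.11 (SE 0.32, adjusted p = 5.8e-07) for Igfbp5, which changed by 0.20, 0.24 and 0.18 in frontal, lambdoid and sagittal SM. It was 1.93 (SE 0.25, adjusted p = 1.9e-08) for Cd34, 0.86 (SE 0.22, adjusted p = 0.002) for Postn, -2.08 (SE 0.33, adjusted p = 1.3e-06) for Lepr and -1.47 (SE 0.25, adjusted p = 5.0e-06) for Ptch1. For Hhip it was -0.47 (SE 0.39, adjusted p = 0.41). Lrrc15 rose in frontal, lambdoid and sagittal SM too (0.94, with an adjusted p just under 0.05, 1.58 and 1.86) but by less than in coronal SM, with a difference of 1.76 (SE 0.33, adjusted p = 2.8e-05). Socs2, an inhibitor of growth hormone signals, rose in SM of all 4 sutures (2.74, 3.16, 2.55 and 2.27), with a difference of 0.08 (SE 0.25, adjusted p = 0.85).

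**Figure D5:**
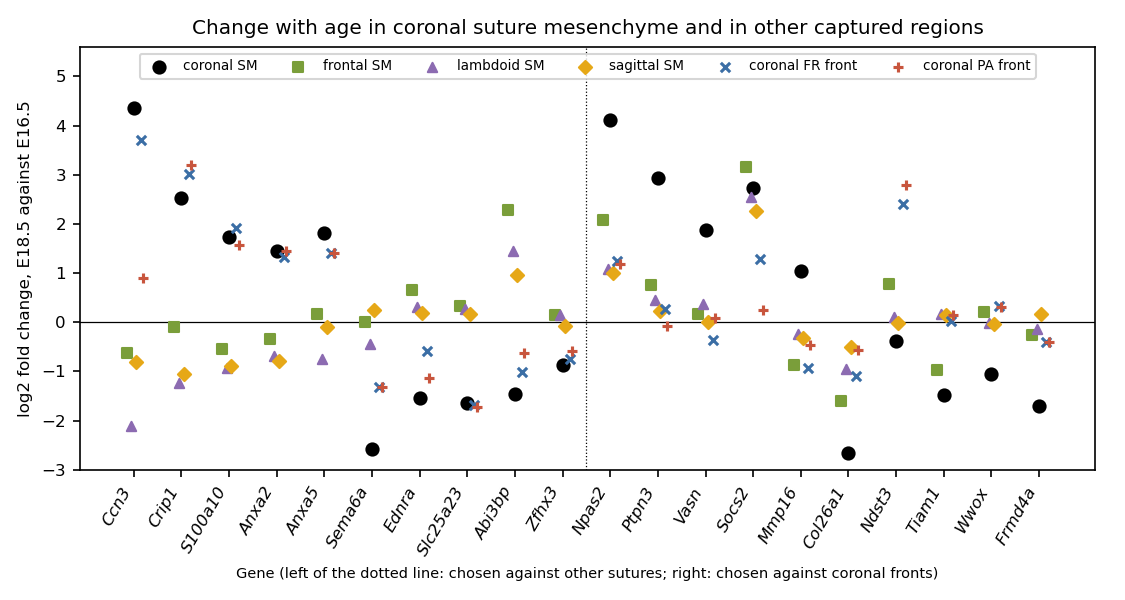
Log2 fold change from E16.5 to E18.5 in coronal SM (black circles), in SM of 3 other sutures and in the FR and PA fronts of the coronal suture, for the genes with the lowest adjusted p in the difference from other sutures (left of the dotted line) and from the coronal fronts (right). Ccn3 rises in coronal SM (4.36) and in the FR front (3.70) and lies below 0 in the other sutures, and Socs2 rises in SM of all 4 sutures.

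The fronts of the same suture, captured from the same embryos, were compared in the same way. Their mitochondrial share was lower at E18.5, as in SM, with medians of 33.8% and 22.8% at E16.5 and E18.5 in the FR front and 37.2% and 26.4% in the PA front. Its part in the changes they share was not tested. In the FR and PA fronts 2493 and 2281 genes rose and 2331 and 1785 fell, and the change in SM lay above the mean of both fronts for 731 genes (3.7%) and below for 776 (3.93%). That count of 1507 was 21 when only the 30 coronal libraries were fitted, a fit that also takes its filter, scaling and spread from those libraries. Npas2 lay above (2.90, SE 0.43, adjusted p = 2.4e-06), with changes of 1.24 and 1.19 in the fronts. Mmp16 rose in SM (1.04) and fell in both fronts (-0.94 and -0.47), a difference of 1.74 (SE 0.21, adjusted p = 4.8e-08), and it rose in the second SM libraries too. Vasn, a membrane protein that traps TGF-beta, Ptpn3, a tyrosine phosphatase, and Socs2 also lay above (2.03, 2.85 and 1.98). Below lay Col26a1 (-1.83, SE 0.28, adjusted p = 7.6e-06), the cytoskeletal regulators Frmd4a (-1.30) and Tiam1 (-1.56), Wwox (-1.39) and Ndst3, a heparan sulfate enzyme (-2.99), which rose in both fronts (2.40 and 2.80) and was not called in SM (-0.39). Frmd4a and Col26a1 were the 2 of these called lower in both sets of SM libraries. Postn rose in the FR and PA fronts too (0.87 and 1.35), with a difference of -0.12 (SE 0.23, adjusted p = 0.83). Ptch1 fell in the FR front (-0.89) and stood at -0.42 in the PA front, with a difference of -0.49 (SE 0.26, adjusted p = 0.26). Igfbp5, Lrrc15 and Lepr differed from the fronts, by 1.38, 1.25 and -1.20 (adjusted p = 0.0048, 0.013 and 0.018). Tgfbi, Runx2 and Cd34 changed in SM by 3.69, -1.11 and 1.77 and did not differ detectably from the mean change of the fronts, with differences of 0.01 (SE 0.48), -0.23 (SE 0.16) and 0.41 (SE 0.27) and adjusted p-values of 1, 0.43 and 0.36.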

How the data were processed

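RNA of laser-captured SM was isolated with the Picopure kit, amplified with the Ovation RNA-Seq System V2, made into libraries with Nextera XT and sequenced by the authors, who trimmed reads with cutadapt, aligned them to mm10 with STAR 2.5.3a and counted read pairs over GENCODE exons without strand with featureCounts 1.6.4. The deposited values are raw counts per gene, so that overlapping genes cannot be split. For Igf2, Cdkn1c, Mest and Fbn1, 64.5%, 30.7%, 23.1% and 20.1% of exonic bases are shared with other genes.

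The fit used edgeR 4.0.16 (R 4.3.3; TMM, quasi-likelihood test) on the 100 first libraries in 20 groups, and on the 18 second libraries by themselves, in each set over the genes that reached 1 CPM in more than 10% of its libraries. CPM of single genes in the text are TMM-scaled, whereas summed CPM of marker lists are scaled by total counts alone. The TMM factors of the first coronal SM libraries were 0.58 to 1.01 at E16.5 and 0.97 to 1.14 at E18.5, so that the 2 scales differ most at E16.5. On simulated data, 57 of 100 genes changed 2-fold and 96 of 100 changed 4-fold were recovered at 5 against 5 libraries, and 29 and 86 of 100 at 3 against 3. The simulation gave both ages the same spread, whereas the median SD of the first libraries was 0.51 at E16.5 and 0.31 at E18.5. The 200 changed genes were drawn from those at 5 CPM or more, and no difference between litters was simulated. Recovery at the spread of E16.5, of genes at lower levels or with many more genes changed was not tested. The members and lists were chosen with earlier results of these data known. The text names up to 12 rises and 12 falls with the largest change, no overlap and 10 CPM in one age, fixed anchor genes, up to 4 called members of each list with the lowest adjusted p, up to 5 genes in each direction per difference between regions, and markers of the capture. Other list members, and Lrrc15, Fndc1, Ssc5d, Htra3, Cd24a, Fstl4, Fam167a and Slc25a37, were chosen after their values were seen. Some genes are not reported here. Alternatives were DESeq2 1.42.0, limma-voom 3.58.1, other scalings, filters and sets of libraries, litter sums and a replicate block. Replicate numbers did not pair the ages: deviations of same-numbered SM libraries correlated at -0.11 to 0.04. Nothing in the labels says that the second libraries differ in method.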

Additional observations from a re-analysis of the deposited data

Results flagged for a closer look

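Dixon's criterion, whose critical value holds for normally distributed values, was applied to CPM without logs. The share it flags was therefore not compared with chance. Among 378 groups of 5 libraries examined, 33 (8.7%) held a library far from the other 4 by this criterion. In E16.5 library 1 these were Kcnn4 at 2.47 CPM, Stk32b at 61.2 CPM, Bglap at 0.656 CPM, Pi16 at 10.5 CPM, Dhrs3 at 7.42 CPM and Dcn at 105 CPM. In E16.5 library 5 they were Smok4a at 61.6 CPM, Mgat4c at 33.0 CPM, Efemp1 at 160 CPM, Plagl2 at 229 CPM, Rspo1 at 71.7 CPM and Cd163 at 29.7 CPM. E16.5 library 3 stood apart for Duoxa1 (1.25 CPM), Igfbp2 (3.99 CPM), Tppp3 (19.4 CPM), Dkk3 (686 CPM) and Pf4 (10.8 CPM), and E16.5 library 2 for Oasl2 (2.74 CPM), Fam20c (1.45 CPM) and Acan (104 CPM). At E18.5, library 1 stood apart for Igfbp5 (1055 CPM), Fam20c (6.75 CPM) and Meox1 (11.4 CPM), and library 2 for Mmp23 (45.4 CPM), Socs2 (10.3 CPM), Aspn (1349 CPM), Ccn1 (60.8 CPM) and Pf4 (71.3 CPM). The rest were E18.5 library 3 for Stk32b (2.11 CPM) and H2-K1 (5.70 CPM), library 4 for Runx2 (530 CPM) and Gli2 (76.2 CPM) and library 5 for Mmp2 (564 CPM).

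The change with age differed between coronal SM and SM of the other sutures, by edgeR's test of the difference, for Ccn3 (5.54), Crip1 (3.32), S100a10 (2.52), Anxa2 (2.05), Anxa5 (2.04), Zfhx3 (-0.95), Slc25a23 (-1.90), Ednra (-1.93), Sema6a (-2.51) and Abi3bp (-3.02), all on the log2 scale. It differed from that of the coronal fronts for Npas2 (2.90), Ptpn3 (2.85), Vasn (2.03), Socs2 (1.98), Mmp16 (1.74), Frmd4a (-1.30), Wwox (-1.39), Tiam1 (-1.56), Col26a1 (-1.83) and Ndst3 (-2.99).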

How the results depend on the processing

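The number of genes called between the ages, 5367, changed with the libraries and the unit fitted: it was 1349 with the 30 coronal libraries, 938 with the 10 SM libraries, 43 with counts summed by litter and, chosen after seeing the data, 3200 without E16.5 libraries 1 and 5 and 1984 and 1431 with voom library weights on 100 and 10 libraries. Leaving out 1 library at a time gave 4470 to 6269. The 4712 genes that differed from other sutures became 3101 without E16.5 libraries 1 and 5 (4116 to 5512 with 1 library out), and the 1507 that differed from the fronts became 21 with the coronal libraries alone (1277 to 2092). The 193 calls of the second libraries became 452 with DESeq2, 519 with no filter on low counts and 69 to 156 with 1 library out. Shares of calls that were higher moved to 82.1% with total counts and 59.9% with voom, where the median gene moved by 0.35 and 0.18.

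With a replicate block the 10 SM libraries gave 458 calls and the 6 second libraries 319, and with the embryo as the block the difference from the fronts gave 55. Numbers shared by the ages did not pair the libraries: 0 of 5 correlated best with their own number.

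Of the 165 named genes called in the first libraries, 142 were not called with counts summed by litter, where 23 kept their call, and 94 kept their sign without a call in the second libraries, where 55 kept their call. With the 10 SM libraries alone 42 of 164 lost it, 62 of 164 with the replicate block, 45 with voom library weights on 100 libraries and 21 without E16.5 libraries 1 and 5. Of 5657 pairs of a named gene and an alternative, 28 changed sign with at least 1 of both values called. Changes of sign between values of which neither was called, such as that of Hhip, are not counted. In the second libraries these were Ppargc1a (0.62), Bmpr2 (0.19), Bmpr1a (0.18), Spred2 (0.60), Inhba (0.93), Dkk1 (0.41), Igf2bp2 (0.27), Gli3 (0.11), Zfhx3 (0.02), Wwox (0.09), Bgn (0.92), Plagl1 (1.15), Bmp4 (0.68), Rpl8 (-0.53), Rps4x (-0.49), Rps9 (-0.56), Rpl13 (-0.77) and Rack1 (-0.69). With first and second libraries summed they were Rpl8 (-0.06), Rps4x (-0.03), Rps9 (-0.25), Rpl13 (-0.55) and Rack1 (-0.22). Pi16 became 0.89 with voom, 1.39 with voom library weights, between -3.79 and 3.23 with 1 library out (3.23 without E16.5 library 1), 4.55 without libraries 1 and 5 and 3.01 with E16.5 libraries 2, 3 and 5. The cause was not tested.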

Other observations

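The counts of lists not described above are to be read against the 27.1% of all genes called in the first libraries and 0.993% in the second. Those without E16.5 libraries 1 and 5 are to be read against 8.55% of all genes higher and 7.49% lower. Of 20 genes of innate immunity, complement and antigen presentation 4 rose, with a median of 0.64 (5 without E16.5 libraries 1 and 5, with 1.12), and 1 of 21 rose in the second libraries, with a median of 0.67. Of 22 secretory pathway genes 10 rose and 2 fell, with a median of 0.33 (8 and 1 without E16.5 libraries 1 and 5), and none was called in the second libraries. Of 22 oxidative phosphorylation genes encoded in the nucleus 5 rose and 1 fell (4 and 2 without E16.5 libraries 1 and 5), with medians of 0.07 and -0.20 in the first and second libraries. Of 12 lipid storage genes 2 rose, with medians of 0.60 and 0.36 in the first and second libraries. Of 16 sterol synthesis genes 2 fell (none without E16.5 libraries 1 and 5), with medians of -0.15 and -0.50. Of 17 immediate early genes none rose and 1 fell. Their median was nevertheless above that of all genes, at 0.91 in the first and 0.61 in the second libraries. Without E16.5 libraries 1 and 5 it was 0.44. Outside the list of innate immunity, complement and antigen presentation, no gene of these lists was called in the second libraries.

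Among markers of other cell types in the first libraries, 3 of 7 osteoclast markers rose (1 without E16.5 libraries 1 and 5), with a summed level of 117 to 378 CPM at E16.5 and 281 to 458 CPM at E18.5, and none was called in the second. Of 10 pericyte and smooth muscle markers 4 rose and 1 fell (1 and 1 without E16.5 libraries 1 and 5), with sums of 245 to 805 CPM at E16.5 and 457 to 887 CPM at E18.5, and none was called in the second libraries, where the sums were 309 to 620 and 652 to 839 CPM, higher at E18.5 without overlap. Of 11 markers of dura mater and meninges 3 rose and 1 fell. Their sum was higher at E18.5 without overlap in the second set (498 to 671 against 726 to 895 CPM). In the first set it did not overlap when scaled by total counts. With mitochondrial counts left out of the totals, it was 629 to 1121 CPM at E16.5 and 927 to 1513 CPM at E18.5, which overlap. Of 6 glial markers 2 rose, and of 7 neuronal markers 4 fell. These counts became 4 rises and 1 fall of 11 dura, 1 rise of 6 glial and 2 falls of 8 neuronal markers without E16.5 libraries 1 and 5. Glial markers summed to only 5.75 to 18 CPM at E16.5 and 10.8 to 16.7 CPM at E18.5 in the first libraries. Neuronal markers summed to 4.22 to 44.7 and 8.41 to 14.4 CPM. No glial or neuronal marker was called in the second libraries. None of 10 osteoblast, 5 skeletal muscle or 5 mast cell markers was called in the first libraries.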
